A study of Mus musculus with 9 samples.

Results

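The genes described here are the NF-kB transcription factor subunits and the genes grouped here as their inhibitors. The subunits are Nfkb1, Rela, Rel, Nfkb2 and Relb, and the inhibitor group is Nfkbia, Nfkbie, Nfkbiz, Tnfaip3 and Tnip1. Nfkbiz is in that group by family, although its protein is needed for a set of late genes. Both groups are a list of names whose rule uses no measured value, though it was drawn up with earlier results of these data known. They hold 10 of the 15343 genes in the deposited table. All 10 passed the filter on low values (10 or more normalized counts in 3 or more libraries), as did 13895 genes in all. In mouse intraperitoneal macrophages stimulated with LPS, none of the 10 transcripts passed the test for a difference with cpdA or DHA pretreatment when all 9 libraries were used. Their values in DHA 2, DHA 3 and cpdA 3 lay below those of LPS 1 and LPS 2 for every one of the 10 genes, while DHA 1, cpdA 1 and cpdA 2 stood near LPS 1 and LPS 2. LPS 3, which had no pretreatment, also lay below the mean of LPS 1 and LPS 2 for 8 of the 10 genes. Its median log2 difference from that mean was -0.24, beside -0.26 in DHA 3.

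NF-kB dimers sit in the cytoplasm of a resting macrophage, held by IkB proteins. LPS, a bacterial cell wall lipid, acts through the receptor TLR4 and the adaptor MyD88 on the IkB kinase (IKK), which marks IkB for destruction and frees the dimers to enter the nucleus. The dimers switch on inflammatory genes and, among them, the genes of their own inhibitors, so that newly made IkB alpha and the ubiquitin-editing protein A20 shut the signal down again. In this cell type the pathway is known for the induction of cytokines and chemokines.

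RNA was sequenced from primary macrophages of wild-type mice (title mark WT, strain written as CF7B1/6 in the labels), all given LPS at 100 ng/ml for 6 h. The cpdA group had received cpdA at 10 µM for 1 h before LPS. The compound is named compound A in the series' design text, and the title of the series names agonism at Gpr120, a receptor for long-chain fatty acids whose gene is Ffar4. The DHA group had received 100 µM of DHA (docosahexaenoic acid, a polyunsaturated fatty acid of the omega-3 class) over the hour before LPS. The LPS group has no pretreatment in its labels. Each group had 3 libraries, named here cpdA 1 to 3, DHA 1 to 3 and LPS 1 to 3. No unstimulated macrophages were analysed here, so the values describe the level reached under LPS and not the induction by it. The labels do not say whether replicates came from separate mice, pools of mice or cultures, nor the age of the mice, and p-values measure only the spread between these libraries. In bulk RNA, fewer cells expressing a gene and less RNA per cell cannot be told apart.

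Promoter windows of 300 bases, reaching from 250 bases before the transcription start to 50 after it, are shown for 5 of the genes because the inhibitors are themselves targets of the factors they restrain. They come from RefSeq (build GRCm38.p6), are written 5′ to 3′ on the strand of the gene, and carry in capitals each match, on either strand, to the NF-kB consensus decamer. Windows were at hand for 7 of the 10 genes, 10 windows in all, and Nfkb1, Relb and Nfkbiz are named only. Nfkbia, the IkB alpha gene, is shown as the classical feedback inhibitor (chr12:55492598-55492897, minus strand), and Tnfaip3, the A20 gene, as the second (chr10:19015361-19015660, minus strand). Tnip1, whose protein binds A20, has a palindromic match (chr11:54962891-54963190, minus strand). Nfkb2 is shown as a subunit gene with the consensus (chr19:46304487-46304786, plus strand), and Rela as the subunit gene without it (chr19:5637291-5637590, plus strand).
Nfkbia: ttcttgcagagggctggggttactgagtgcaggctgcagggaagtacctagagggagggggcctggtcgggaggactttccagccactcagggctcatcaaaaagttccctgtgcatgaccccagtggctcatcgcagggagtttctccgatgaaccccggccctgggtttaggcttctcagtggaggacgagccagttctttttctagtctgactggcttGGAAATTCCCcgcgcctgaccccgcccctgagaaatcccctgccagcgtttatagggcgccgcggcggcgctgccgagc
Tnfaip3: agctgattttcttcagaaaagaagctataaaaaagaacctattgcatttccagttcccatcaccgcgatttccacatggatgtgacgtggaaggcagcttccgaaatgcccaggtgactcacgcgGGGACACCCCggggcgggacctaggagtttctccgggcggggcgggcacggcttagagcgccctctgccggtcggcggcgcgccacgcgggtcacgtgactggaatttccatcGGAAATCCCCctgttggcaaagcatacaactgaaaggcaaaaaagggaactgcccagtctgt
Tnip1: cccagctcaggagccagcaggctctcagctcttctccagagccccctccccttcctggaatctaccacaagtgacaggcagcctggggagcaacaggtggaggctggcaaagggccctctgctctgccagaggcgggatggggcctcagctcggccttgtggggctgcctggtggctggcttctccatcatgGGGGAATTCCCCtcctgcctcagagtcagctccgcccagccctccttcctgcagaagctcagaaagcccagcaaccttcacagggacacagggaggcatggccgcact
Nfkb2: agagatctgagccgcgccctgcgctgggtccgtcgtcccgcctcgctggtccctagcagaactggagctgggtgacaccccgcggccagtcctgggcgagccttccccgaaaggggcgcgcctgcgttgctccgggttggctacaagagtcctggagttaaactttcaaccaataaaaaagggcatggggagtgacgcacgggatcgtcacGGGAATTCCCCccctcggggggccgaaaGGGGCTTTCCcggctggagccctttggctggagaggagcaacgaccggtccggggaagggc
Rela: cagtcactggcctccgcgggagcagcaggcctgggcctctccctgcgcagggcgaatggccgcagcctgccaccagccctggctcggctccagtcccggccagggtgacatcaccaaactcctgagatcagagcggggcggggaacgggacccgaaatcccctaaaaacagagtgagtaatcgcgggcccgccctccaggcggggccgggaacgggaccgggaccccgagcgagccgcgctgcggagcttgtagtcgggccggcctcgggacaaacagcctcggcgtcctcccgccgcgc

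The consensus was found in windows of 6 of the 7 genes, in 8 of their 10 windows, against 4.51% of all 32851 promoter windows of the table. These windows are not all separate, since the Nfkb2 windows that start at 46305445 and 46305680 overlap and hold the same match, GGGACTTTCC. In the Nfkbia window the match began 29 bases before the start, and in the Tnfaip3 window the matches began 125 and 12 bases before it.  The shorter GGAANNCCC was present for 5 of the 7 and in 5.82% of all windows, and its matches can overlap those of the decamer. Both patterns were searched on both strands. The GC content of the windows of the 7 genes ran from 47.0% to 75.0%, against a median of 52.7% over all windows. These matches describe letters in a window and do not show binding. The missing consensus match for Rela says only that the decamer is not in its window.

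Likeness within a group was uneven. The reads recovered from the table ran from 13797079 in DHA 1 to 37572822 in cpdA 2. The fewest reads behind any value of the 10 genes were 629 (Rel in DHA 1), so counting error was small beside the spread between libraries. Libraries of different groups were near-identical in 1 case: thinned to equal depth, cpdA 1 and DHA 1 differed by 1.15 times sampling noise over all genes and by 1.10 times over the 10 genes, less than any pair of libraries of the same group. LPS 1 and LPS 2 differed by 1.29 times over all genes, cpdA 1 and cpdA 2 by 1.81 times, and cpdA 2 and cpdA 3 by 4.15 times. The 10 genes of cpdA 3 stood 36.7 times sampling noise from cpdA 2, and those of LPS 3 9.16 times from LPS 2. For the same genes LPS 1 and LPS 2 stood 3.13 times apart. Multiples for the 10 genes cannot be set against those over all genes. With more reads, the same difference is a larger multiple of sampling noise. The values alone do not show whether cpdA 1 and DHA 1 are separate preparations or whether each carries the right label, so the n of 3 in both groups rests on the labels. Results are given with all 9 libraries and also without cpdA 3 and LPS 3 (7 libraries), without DHA 1 and cpdA 1, and without cpdA 3, LPS 3 and DHA 1.

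Of the subunits that form the canonical dimers, Nfkb1 (Entrez 18033) encodes p105, the precursor of the p50 subunit. Its normalized counts, reads divided by a size factor for each library, were 16986, 16626 and 6988 in cpdA 1 to 3, 16944, 11720.3 and 14339 in DHA 1 to 3, and 17797.5, 16958 and 12840.3 in LPS 1 to 3. The cpdA 3 value was the lowest of the 9 and the groups overlapped. Rela (Entrez 19697), which encodes p65, the transactivating partner of p50, had normalized counts of 5671, 4892 and 4077 in cpdA 1 to 3, 5539.5, 4094 and 4336 in DHA 1 to 3, and 5344, 5315 and 5368 in LPS 1 to 3. The 3 LPS libraries lay within 1.01-fold of each other, while the cpdA libraries spanned 1.39-fold and the DHA libraries 1.35-fold around and below them. Rel (Entrez 19696), the gene of c-Rel, another transactivating subunit, had normalized counts of 1442, 1505 and 650.1 in cpdA 1 to 3, 1402, 1088 and 1379 in DHA 1 to 3, and 1630.3, 1423 and 1486 in LPS 1 to 3. All 3 DHA libraries lay below all 3 LPS libraries for Rel, the only gene of the 10 whose DHA and LPS libraries did not overlap, beside 15.0% of all tested genes that lay below in the same way.

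The pair of subunits best known from the slower, non-canonical arm, in which p100 is processed to p52, showed an uneven spread in the cpdA group. Nfkb2 (Entrez 18034), which encodes p100, had normalized counts of 29850.1, 27694 and 8358 in cpdA 1 to 3, 29358, 18932.5 and 22958 in DHA 1 to 3, and 29539, 27689 and 23712 in LPS 1 to 3. Its cpdA libraries spanned 3.57-fold, the widest range of the 10 genes, with cpdA 3 the lowest. Relb (Entrez 19698), the partner of p52, had normalized counts of 2943.5, 2897 and 2363 in cpdA 1 to 3, 3049.5, 2154 and 2402 in DHA 1 to 3, and 2909.6, 2789 and 2146 in LPS 1 to 3. Relb was the member with the narrowest cpdA range, 1.25-fold, and its lowest library was LPS 3. For both genes the 3 groups overlapped.

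**Figure D1:**
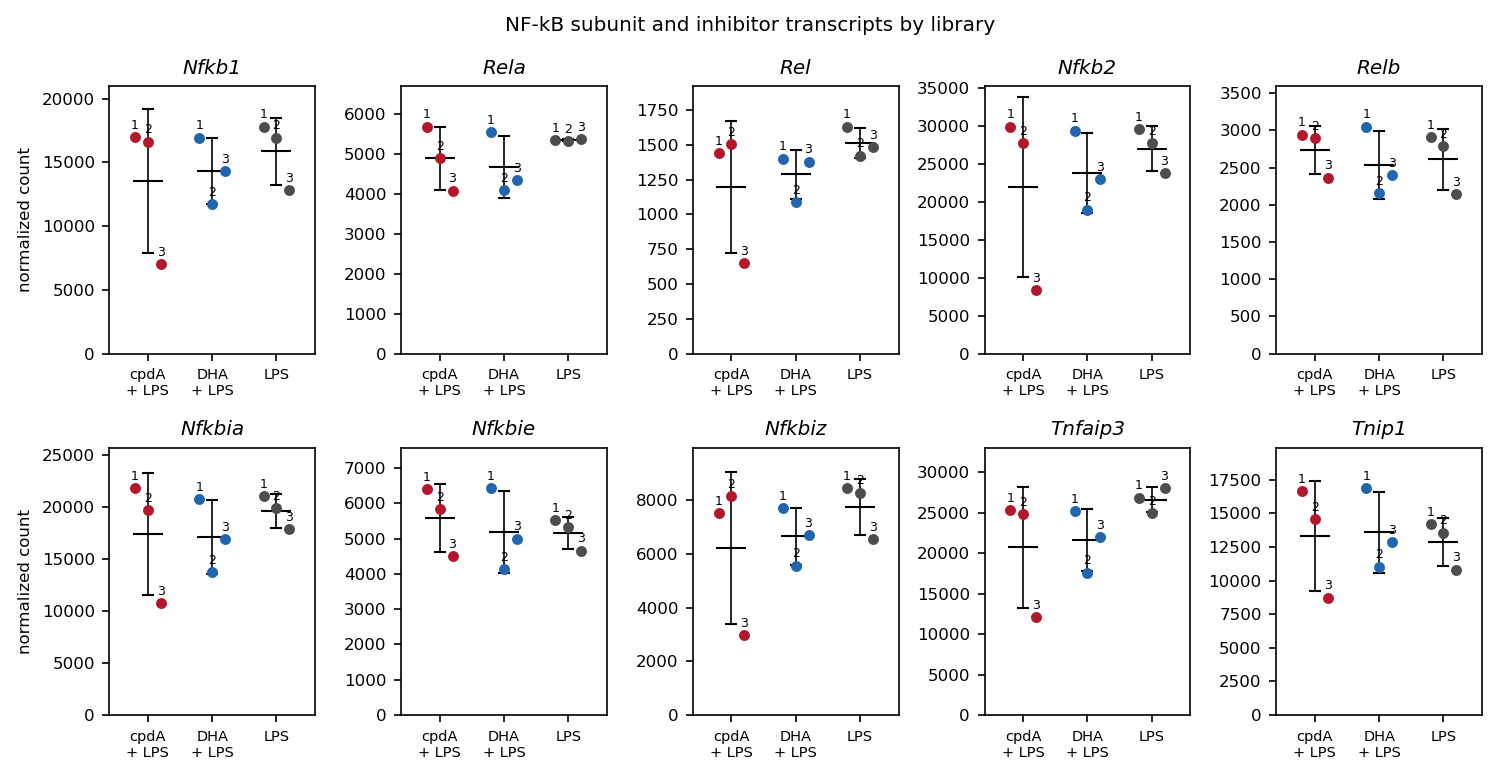
Normalized counts of the 10 genes by library; each panel is a gene, the vertical axis starts at 0, points are libraries numbered by replicate, and bars give the mean and SD of each group (n = 3). In 8 of the 10 panels cpdA 3 is the lowest point, as in Nfkb2 (8358), and Rela has its 3 LPS points close together.

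Among the IkB proteins, Nfkbia (Entrez 18035) encodes IkB alpha, which is degraded on stimulation and remade under NF-kB control. It had normalized counts of 21766.5, 19667 and 10741 in cpdA 1 to 3, 20729, 13683.5 and 16906 in DHA 1 to 3, and 21039, 19834 and 17837 in LPS 1 to 3. DHA 2 and cpdA 3 were the lowest libraries and cpdA 1 the highest, and the groups overlapped. Nfkbie (Entrez 18037), the gene of IkB epsilon, a further cytoplasmic IkB, had normalized counts of 6404.5, 5835.5 and 4504 in cpdA 1 to 3, 6424.5, 4135 and 5001 in DHA 1 to 3, and 5513, 5317 and 4659 in LPS 1 to 3. Here cpdA 1, cpdA 2 and DHA 1 stood above every LPS library, and cpdA 3 and DHA 2 below every LPS library. Nfkbiz (Entrez 80859) encodes IkB zeta, an inducible nuclear IkB that in mouse macrophages is needed for a set of late genes such as Il6, and had normalized counts of 7504, 8158 and 2973 in cpdA 1 to 3, 7693, 5562.5 and 6694 in DHA 1 to 3, and 8441, 8278.5 and 6549.6 in LPS 1 to 3. The cpdA 3 value was below every other library, and the other 8 lay between 5562.5 and 8440.6.

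The ubiquitin arm of the feedback is A20 and its partner. Tnfaip3 (Entrez 21929), the A20 gene, had normalized counts of 25288, 24839 and 12059.7 in cpdA 1 to 3, 25225.5, 17576 and 21970.4 in DHA 1 to 3, and 26855.5, 24978 and 28024 in LPS 1 to 3. LPS 3 was its highest library, unlike every other gene of the set, and cpdA 1 and DHA 1 lay between the LPS values. Tnip1 (Entrez 57783) encodes ABIN-1, which brings A20 to its ubiquitinated targets, and had normalized counts of 16658, 14570.3 and 8726 in cpdA 1 to 3, 16875, 11032.5 and 12872 in DHA 1 to 3, and 14194.5, 13578 and 10816 in LPS 1 to 3. For Tnip1 the highest libraries were DHA 1 and cpdA 1, the LPS libraries lay inside the range of the cpdA group, and LPS 3 lay below every DHA library. The LPS 3 library departed from LPS 1 and LPS 2 in opposite directions for these partners, above for Tnfaip3 and below for Tnip1.

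Each library was set against the mean of LPS 1 and LPS 2 on the log2(value + 1) scale. The median difference of the 10 was -1.02 in cpdA 3, with Nfkb2 lowest at -1.77 and Nfkbie highest at -0.27. It was -0.52 in DHA 2 and -0.26 in DHA 3, and in each of these 3 libraries all 10 genes were below. In DHA 1 and cpdA 1 it was 0.030 and 0.054, with 4 of 10 genes below in each, and in cpdA 2 it was -0.040 with 7 below. LPS 3 had a median of -0.24 with 8 of 10 below, from Nfkb1 at -0.44 to Tnfaip3 at 0.11. The median of all tested genes lay between -0.015 and 0.015 in all 9 libraries.

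**Figure D2:**
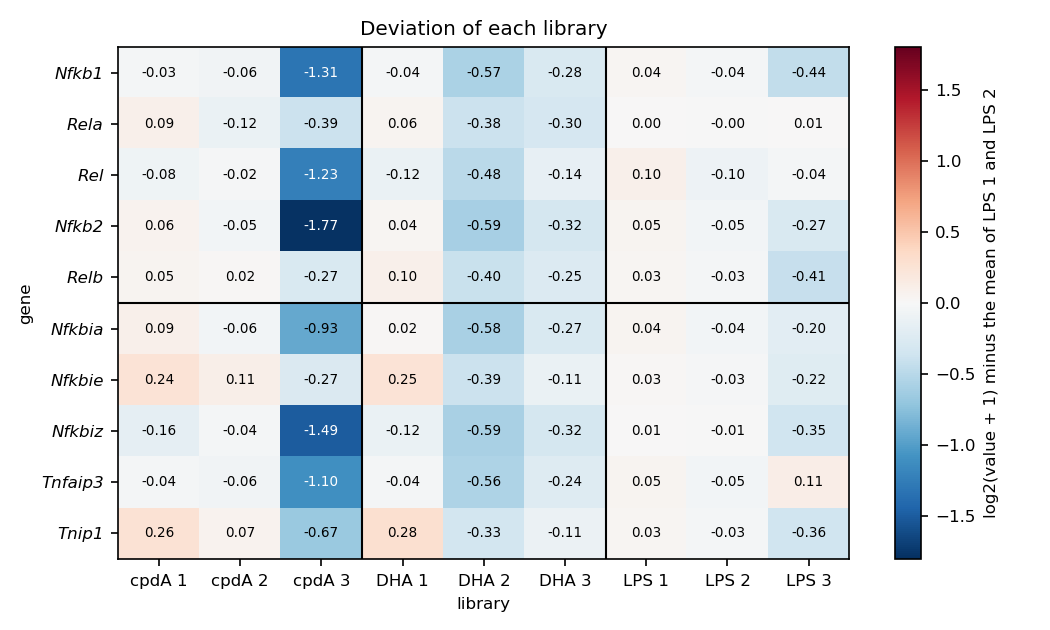
Difference of each library from the mean of LPS 1 and LPS 2, in log2(value + 1), for the 10 genes (rows; subunits above the line, inhibitors below) and the 9 libraries (columns; lines separate the groups). The columns of cpdA 3, DHA 2 and DHA 3 are negative throughout, with cpdA 3 at -1.77 for Nfkb2, while those of cpdA 1 and DHA 1 resemble each other.

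DHA + LPS was set against LPS to ask whether DHA altered the components of the pathway in stimulated macrophages. In limma with all 9 libraries the log2 differences (on log2(value + 1)) were negative for 9 of the 10 genes, though Nfkb1 (0.013) and Nfkbie (0.095) were positive under quantile scaling. Their median was -0.21 against -0.0007 over all genes tested, and 0 of 10 passed at a Benjamini-Hochberg adjusted p of 0.05. None had an unadjusted p under 0.05, and edgeR and DESeq2 on the recovered reads called 0 of the 10 as well. Over all genes 1 of 13895 was called (0.0072%), namely Cpt1a, which is not in the pathway. Tnfaip3 was at -0.32 (SE 0.28; limma adjusted p = 0.619), with a 95% interval from -0.94 to 0.31. Rela, with the smallest adjusted p, was at -0.21 (SE 0.15; adjusted p = 0.537), and Rel at -0.24 (adjusted p = 0.732). Nfkb1 was at -0.15, Nfkb2 at -0.20 and Relb at -0.047. Nfkbia was at -0.21, with an interval from -0.81 to 0.39, Nfkbiz at -0.23 and Nfkbie at -0.013. Tnip1 was the only gene with a positive value, 0.067 (adjusted p = 0.926), and that sign turned without DHA 1 (-0.10) or without LPS 3 (-0.053).

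When cpdA 3 and LPS 3 were left out, 943 of 13895 genes (6.79%) were called for DHA, 561 of them lower (4.04%), but again 0 of the 10 genes. All 10 values were then negative, from -0.34 for Nfkbiz (SE 0.12; limma adjusted p = 0.116) to -0.053 for Tnip1, with a median of -0.26, and Nfkbiz, Nfkb1 and Rel had an unadjusted p under 0.05. The 3 DHA libraries do not carry this equally, since DHA 1 stood at the level of LPS 1 and LPS 2. Leaving DHA 1 out as well, a choice made after its values were seen and one that removes the DHA library with the highest values, put 8 of the 10 genes past the test as lower, beside 11.5% of all genes called lower. In that fit of 6 libraries Nfkb2 was at -0.46 (SE 0.10; limma adjusted p = 0.00231), Nfkbiz at -0.45, Nfkbia at -0.43 and Nfkb1 at -0.42. Nfkbie (-0.25, adjusted p = 0.0623) and Tnip1 (-0.22, adjusted p = 0.118) did not pass. With all 9 libraries weighted by how well each followed the fit, where DHA 3 had the highest weight, Rela (-0.28), Relb (-0.23) and Nfkbiz (-0.32) were lower, 3 of 10 beside 14.8% of all genes. Without DHA 1 and cpdA 1 alone, 0 of the 10 and 0 of all genes were called.

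The same question was put to cpdA + LPS against LPS. The 10 genes had a median log2 difference of -0.28 against -0.0043 over all genes tested, 7 of them negative, and 0 of 10 passed, none with an unadjusted p under 0.05. 1 of 13895 genes (0.0072%) was called, again Cpt1a, and with the replicate number as a block 0 genes were. Nfkb2 was at -0.50 (SE 0.43; limma adjusted p = 0.628), with a 95% interval from -1.48 to 0.48. Nfkbiz was at -0.44, Tnfaip3 at -0.44 (adjusted p = 0.49), Rel at -0.43, Nfkb1 at -0.32, Nfkbia at -0.23 and Rela at -0.14. Nfkbie, Relb and Tnip1 were at 0.10, 0.070 and 0.008. The negative values turned on cpdA 3, without which Nfkb2 was at 0.098, Nfkb1 at 0.097, Nfkbia at 0.084, Nfkbiz at 0.022, Rel at -0.036 and Tnfaip3 at -0.085. Without LPS 3 instead, Relb was at -0.066 and Tnip1 at -0.11.

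Without both cpdA 3 and LPS 3, 222 genes (1.60%) were called for cpdA and 0 of the 10. Their values ran from -0.095 for Nfkbiz to 0.17 for Nfkbie, with 5 positive, 5 negative and a median of -0.005. The interval for Nfkbia, -0.34 to 0.37, and that for Tnfaip3, -0.37 to 0.28, show how large a difference these libraries could have missed. Without DHA 1 and cpdA 1 the cpdA median of the 10 was -0.48, with cpdA 3 then making up 1 of 2 cpdA libraries, and 0 of the 10 passed. Beyond these, 5.25% of all genes were called for cpdA when DHA 1 was left out as well as cpdA 3 and LPS 3, 1.8% when cpdA 1 was left out in addition, and 4.05% with library weights, and 0 of the 10 in each. No fit run here called any of the 10 for cpdA against LPS.

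**Figure D3:**
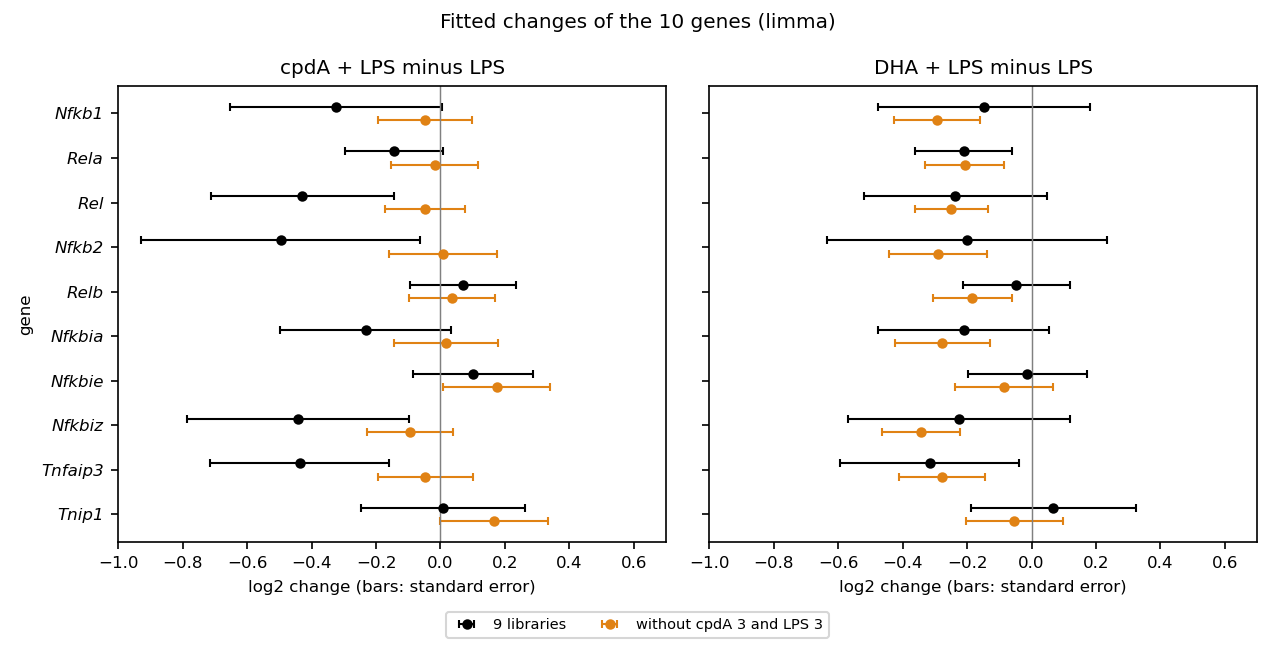
Fitted log2 differences of the 10 genes for cpdA + LPS minus LPS (left) and DHA + LPS minus LPS (right); points are limma estimates and bars their standard errors, in black with 9 libraries and in orange without cpdA 3 and LPS 3. In the left panel Nfkb2 moves to 0.008 without these libraries, against -0.50 with all 9, while in the right panel the orange points are all below 0, from -0.34 for Nfkbiz to -0.053 for Tnip1.

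Set directly against each other with all 9 libraries, cpdA + LPS and DHA + LPS gave no difference past the test for any of the 10 genes. The log2 differences, cpdA minus DHA, ran from -0.29 for Nfkb2 to 0.12 for Relb (limma adjusted p = 1 for each), with 95% intervals from -1.28 to 0.69 and from -0.26 to 0.49. In that fit 0 of 13895 genes (0.0%) were called, with 142 at an unadjusted p under 0.05. With 7 libraries all 10 values were positive, from 0.19 for Rela to 0.30 for Nfkb2, and 0 of the 10 and 0 of all genes passed (smallest adjusted p of the 10 was 0.754). Leaving DHA 1 out as well gave 9 of the 10 higher with cpdA than with DHA, beside 3.64% of all genes, with Rel the exception (adjusted p = 0.119). Leaving out cpdA 1 in addition gave 0 of the 10 and 2.06% of all genes, and 8 of the 10 were then lower with DHA than with LPS, beside 11.1% of all genes. The cpdA and DHA libraries overlapped for all 10 genes, beside 3.04% of all genes with every cpdA library above every DHA library and 2.61% with every one below. The doses differed, 10 µM for cpdA and 100 µM for DHA, so the values are set side by side without matching dose.

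Levels of different genes were compared per kilobase of merged exon (GENCODE annotation of GRCm38), as normalized counts. Merged exons join all annotated transcripts of a gene, so the order of genes depends on this choice of length. Nfkbia was the most abundant, with 10802 ± 3636 in cpdA, 10625 ± 2191 in DHA and 12155 ± 1004.5 in LPS libraries (SD, n = 3 each). Nfkb2 followed with 4792 ± 2582 in cpdA, 5181 ± 1147 in DHA and 5886 ± 649.5 in LPS. Tnfaip3 and Tnip1 came next, at 2869 and 3763 in cpdA, 2988 and 3841 in DHA, and 3684 ± 213 and 3635 ± 508 in LPS. Within a library Tnip1 was above Tnfaip3 per kilobase in 3 of 3 cpdA, 3 of 3 DHA and 2 of 3 LPS libraries, with LPS 3 in the other order. Rela (1739), Nfkbie (1695.5) and Nfkbiz (1546) formed a middle tier in LPS libraries, and Nfkb1 at 1315 ± 220.0 lay below Nfkbiz within each of the 3 libraries of every group. That order rests on the merged length, 12061 bases for Nfkb1 and 5018 for Nfkbiz. Before division by length Nfkb1 was the higher, with LPS means of 15865 and 7756 normalized counts. Relb had 673 ± 106 and Rel 203 ± 14.2 per kilobase in LPS, the lowest levels of the 10. Rel was also the lowest in cpdA (161 ± 63.8) and DHA (173 ± 23.4), so that the inhibitor IkB alpha exceeded every subunit transcript per kilobase in each group.

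Ratios of 2 of the genes within a library do not depend on how the library was scaled. The log2 ratio of Tnfaip3 to Tnip1 was 0.60, 0.77 and 0.47 in cpdA 1 to 3, 0.58, 0.67 and 0.77 in DHA 1 to 3, and 0.92, 0.88 and 1.37 in LPS 1 to 3. Every cpdA and every DHA library thus lay below every LPS library, cpdA 1 and DHA 1 included. Of single genes, 12.2% lay below in this way for cpdA and 15.0% for DHA, and the share among ratios of other genes was not computed. Both comparisons use the same LPS libraries, and cpdA 1 and DHA 1 were near-identical, so they are not independent of each other. The difference of the means was -0.45 for cpdA and -0.38 for DHA (two-sided exact permutation test, p = 0.1 for each, the smallest that 3 against 3 allows, and 0.692 after Benjamini-Hochberg adjustment over 15 ratio tests). Leaving out each library in turn gave -0.53 to -0.29 for cpdA and -0.47 to -0.23 for DHA. Between cpdA and DHA the ratio differed by -0.062 (exact permutation p = 0.6).

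The other ratios overlapped between all groups. Nfkb2 over Nfkb1, the precursors of p52 and p50, had a log2 ratio of 0.60 ± 0.30 in cpdA, 0.72 ± 0.062 in DHA and 0.77 ± 0.096 in LPS (SD, n = 3 each; exact permutation p from 0.5 to 0.9). Relb over Rela was -0.83 ± 0.10 in cpdA, -0.88 ± 0.041 in DHA and -1.04 ± 0.24 in LPS, with LPS 3 at -1.32. Nfkbia over Nfkb1 was 0.41 ± 0.19 in cpdA, 0.25 ± 0.036 in DHA and 0.31 ± 0.14 in LPS. Nfkbiz over Nfkbia, the nuclear against the classical IkB, was -1.55 ± 0.29 in cpdA, -1.35 ± 0.068 in DHA and -1.34 ± 0.095 in LPS, with the lowest value, -1.85, in cpdA 3. The smallest exact p among these 4 ratios was 0.2, and none passed after adjustment.

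**Figure D4:**
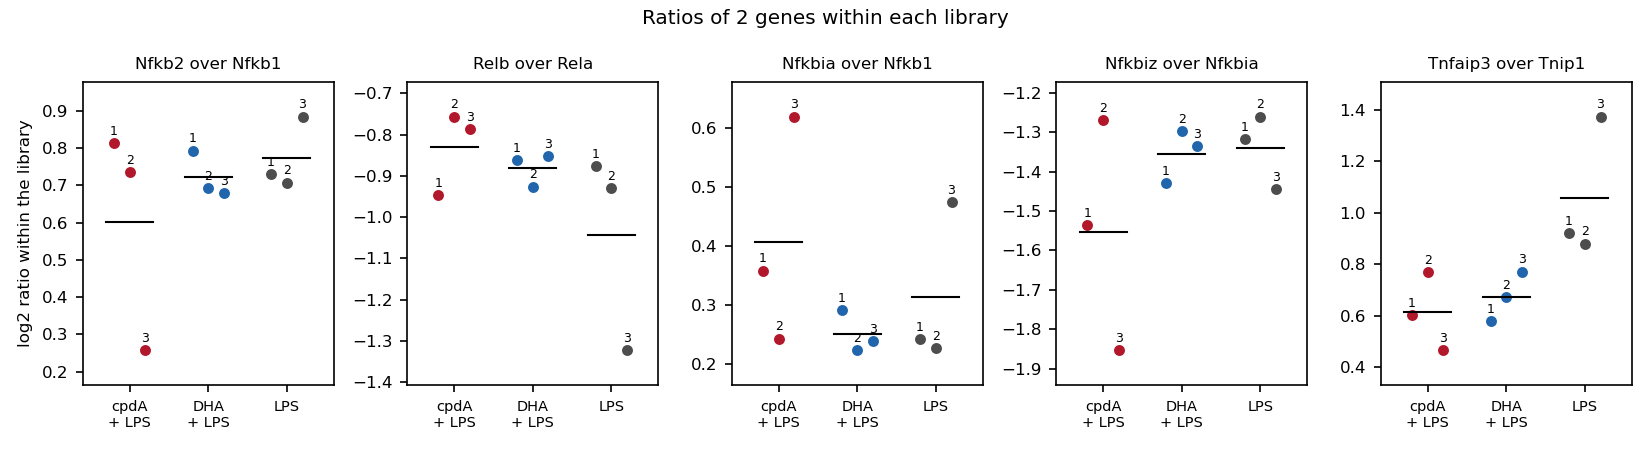
Log2 ratios of 2 genes within each library; points are libraries numbered by replicate and lines the group means, with a vertical axis of its own for each ratio. For Tnfaip3 over Tnip1 the 6 cpdA and DHA points lie between 0.47 and 0.77 and the 3 LPS points between 0.88 and 1.37.

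Over the 9 libraries, which share the preparations that stand apart, every pair of the 10 genes had a positive r, though of uneven size. Pearson's r of log2(value + 1) over the 45 pairs ran from 0.45 for Rel with Relb to 0.99, with a median of 0.84, and without cpdA 3 from 0.37 for Tnfaip3 with Tnip1 to 0.99, with a median of 0.83. Of 10164 genes with a mean of at least 100, the gene most like Nfkbia was Tagln2 (r = 0.998 over 9 libraries, 0.995 without cpdA 3), and the second was Nfkbib, the gene of IkB beta (0.990 and 0.985). Nfkb1 was most like Ptpn11 (0.996), a tyrosine phosphatase gene, Nfkb2 like Kremen1 (0.998) and Rel like Tmcc3 (0.995). Rela was most like Map2k2 (0.977), a kinase gene of the ERK cascade, and Relb like Brpf1 (0.981), whose r without cpdA 3 was 0.985. Nfkbie was most like Smurf1 (0.986), a ubiquitin ligase gene, and Nfkbiz like Arhgef3 (0.997). Tnfaip3 was most like Pdgfrb (0.997), with Sdc4, a known NF-kB target, at 0.995, and Tnip1 like Tnfrsf1b (0.992), the gene of TNF receptor 2, followed among others by Src at 0.988. These r describe 9 points and carry no test, and the r among pairs of other genes was not taken as a background.

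The genes that carry the signal to IKK, from the receptor complex to the ubiquitin ligases, were all 21 measured. With all 9 libraries 0 passed in either comparison (median -0.11 for cpdA and -0.093 for DHA, with 16 of 21 negative in each). With 7 libraries, 0 of 21 were lower with cpdA and 3 with DHA, beside 0.885% and 4.04% of all genes called lower. Myd88, the adaptor of TLR4, had normalized counts of 4577, 4625 and 2158 in cpdA 1 to 3, 4617, 3507 and 3954 in DHA 1 to 3, and 5856, 5626 and 6109 in LPS 1 to 3, so every cpdA and DHA library lay below every LPS library, as for 12.2% and 15.0% of all genes. In that fit it fell by 0.52 with DHA (SE 0.11; limma adjusted p = 0.0162), and with cpdA it was at -0.32 (adjusted p = 0.290). Ly96, which encodes MD-2, the LPS-binding partner of TLR4, had normalized counts of 619.0, 619.1 and 345.9 in cpdA 1 to 3, 662.1, 586.4 and 651.0 in DHA 1 to 3, and 784.7, 855.0 and 798.1 in LPS 1 to 3. It fell by 0.37 with DHA (adjusted p = 0.0335) and was at -0.40 with cpdA (adjusted p = 0.0850), again with no overlap with LPS. Rbck1, the HOIL-1 gene of the linear ubiquitin ligase, fell by 0.33 with DHA (adjusted p = 0.0425). Tlr4 itself was at 0.10 with DHA and Cd14, the LPS co-receptor, at 0.26 with cpdA (adjusted p = 0.636 and 0.590).

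Of 10 genes of the non-canonical arm, 0 passed with all 9 libraries or with 7 libraries. Their medians were -0.21 for cpdA and -0.24 for DHA with all 9 libraries. Cd40, a receptor that starts this arm, was at -1.20 with cpdA (SE 0.72; limma adjusted p = 0.462), where cpdA 3 had 3711 normalized counts and the other 8 libraries 22707 to 39856. Traf3, which holds the kinase NIK (Map3k14) in check, was at 0.31 with cpdA and 0.093 with DHA (adjusted p = 0.271 and 0.735). Without cpdA 3, LPS 3 and DHA 1, 5 of the 10 genes of this arm were lower with DHA than with LPS. Of all genes 11.5% were called lower in that fit, and 0 of the 10 passed for cpdA against LPS. Other lists also held genes lower with DHA in that fit. These were 5 of the 21 genes that carry the signal to IKK and 37 of the 48 targets described below. They were also 4 of the 6 genes that need IkB zeta, and 6 of the 21 other inhibitory genes, with 1 of the 21 higher. Of 21 measured genes among 22 listed as other IkB-like or inhibitory genes, 0 passed with all 9 libraries (median -0.13 for cpdA and -0.077 for DHA). With 7 libraries, Tnip3, the gene of the related A20 partner ABIN-3, fell by 0.45 with DHA (limma adjusted p = 0.0272) and was at -0.27 with cpdA (adjusted p = 0.389). Its normalized counts were 3258, 3799 and 1839.9 in cpdA 1 to 3, 3310.3, 2717.5 and 3317.5 in DHA 1 to 3, and 4242, 4237 and 5889.6 in LPS 1 to 3. All cpdA and DHA libraries lay below all LPS libraries, as for 12.2% and 15.0% of all genes. Sqstm1, the gene of the ubiquitin-binding protein p62, had normalized counts of 49495, 43435 and 30565 in cpdA 1 to 3, 49809, 33812 and 39811 in DHA 1 to 3, and 29139, 28978 and 11440.5 in LPS 1 to 3, all cpdA and DHA libraries above all LPS libraries, as for 10.7% and 13.0% of all genes. Its log2 difference with all 9 libraries was 0.92 for cpdA and 0.93 for DHA (limma adjusted p = 0.299 and 0.312), and without cpdA 3 and LPS 3 it was 0.67 and 0.48 (adjusted p = 0.0683 and 0.0678).

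Downstream, of 48 NF-kB target genes all were measured and 0 passed with all 9 libraries. Their median was -0.40 for cpdA, with 41 of 48 negative, and -0.15 for DHA, with 36 negative, against medians of -0.0043 and -0.0007 over all genes. With 7 libraries, 2 were lower with cpdA and 10 with DHA, the medians were -0.081 and -0.30, and 0 were higher. Over all genes 0.885% were called lower with cpdA and 4.04% with DHA in that fit, and 0.712% and 2.75% higher. Nos2, the inducible nitric oxide synthase, had normalized counts of 12140.2, 14046 and 575.9 in cpdA 1 to 3, 11518, 9528 and 10391 in DHA 1 to 3, and 22275, 21073 and 33340.3 in LPS 1 to 3. Every cpdA and DHA library lay below every LPS library, as for 12.2% and 15.0% of all genes. In that fit Nos2 fell by 0.73 with cpdA and by 1.05 with DHA (limma adjusted p = 0.0106 and 0.000485). Mmp13, a collagenase gene, fell by 0.57 with cpdA and by 0.77 with DHA (adjusted p = 0.0402 and 0.00272). The others lower with DHA were the colony-stimulating factor genes Csf2 (-0.95) and Csf1 (-0.53), the cytokine gene Il6 (-0.66), Ier3 (-0.55), Cd83 (-0.51), the acute-phase gene Saa3 (-0.49), the adhesion gene Vcam1 (-0.46) and the survival gene Bcl2l1 (-0.38). LPS 3, which is left out there, lay above every DHA library for Nos2, Mmp13, Csf1, Vcam1 and Cd83. It lay below every DHA library for Il6 (5043 normalized counts), Csf2 (34.8) and Bcl2l1 (2500), and inside the DHA range for Ier3 (1324) and Saa3 (31188). With all 9 libraries the DHA values were -0.10 for Il6, -0.18 for Csf2, -0.16 for Bcl2l1, -0.30 for Ier3 and -0.38 for Saa3. The cpdA values of Nos2 and Mmp13 were -2.44 and -1.86 with all 9 libraries, and cpdA 3 was their lowest library. In the direct comparison of cpdA with DHA in that fit all 48 values were positive (median 0.22), with 0 past the test. With DHA 1 left out as well, 25 of the 48 passed as higher with cpdA than with DHA, beside 3.64% of all genes.

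6 genes known from mouse macrophages to need IkB zeta were set beside Nfkbiz. Their median with all 9 libraries was -0.75 for cpdA, 6 of 6 negative, and -0.14 for DHA, 4 of 6 negative, with 0 past the test. With 7 libraries the order of these medians turned, at -0.25 for cpdA, 4 of 6 negative, and -0.43 for DHA, 5 of 6 negative, and 1 gene was lower with cpdA and 3 with DHA. Edn1, the endothelin-1 gene, had normalized counts of 6249, 6321 and 227.3 in cpdA 1 to 3, 6124, 4358 and 5442 in DHA 1 to 3, and 10663, 9799.6 and 8545 in LPS 1 to 3. With 7 libraries, Edn1 fell by 0.70 with cpdA and by 0.96 with DHA (limma adjusted p = 0.0261 and 0.00152). Its LPS values, LPS 3 included, lay above every cpdA and DHA library, as for 12.2% and 15.0% of all genes. With all 9 libraries its cpdA value was -2.21, with cpdA 3 the lowest library. Il12b (0.12 with cpdA and -0.12 with DHA) and Lcn2 (0.46 and 0.23) did not pass in that fit (adjusted p from 0.352 to 0.819). Of the 6, Il6, Il12b, Csf2 and Lcn2 are also among the 48 targets.

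**Figure D5:**
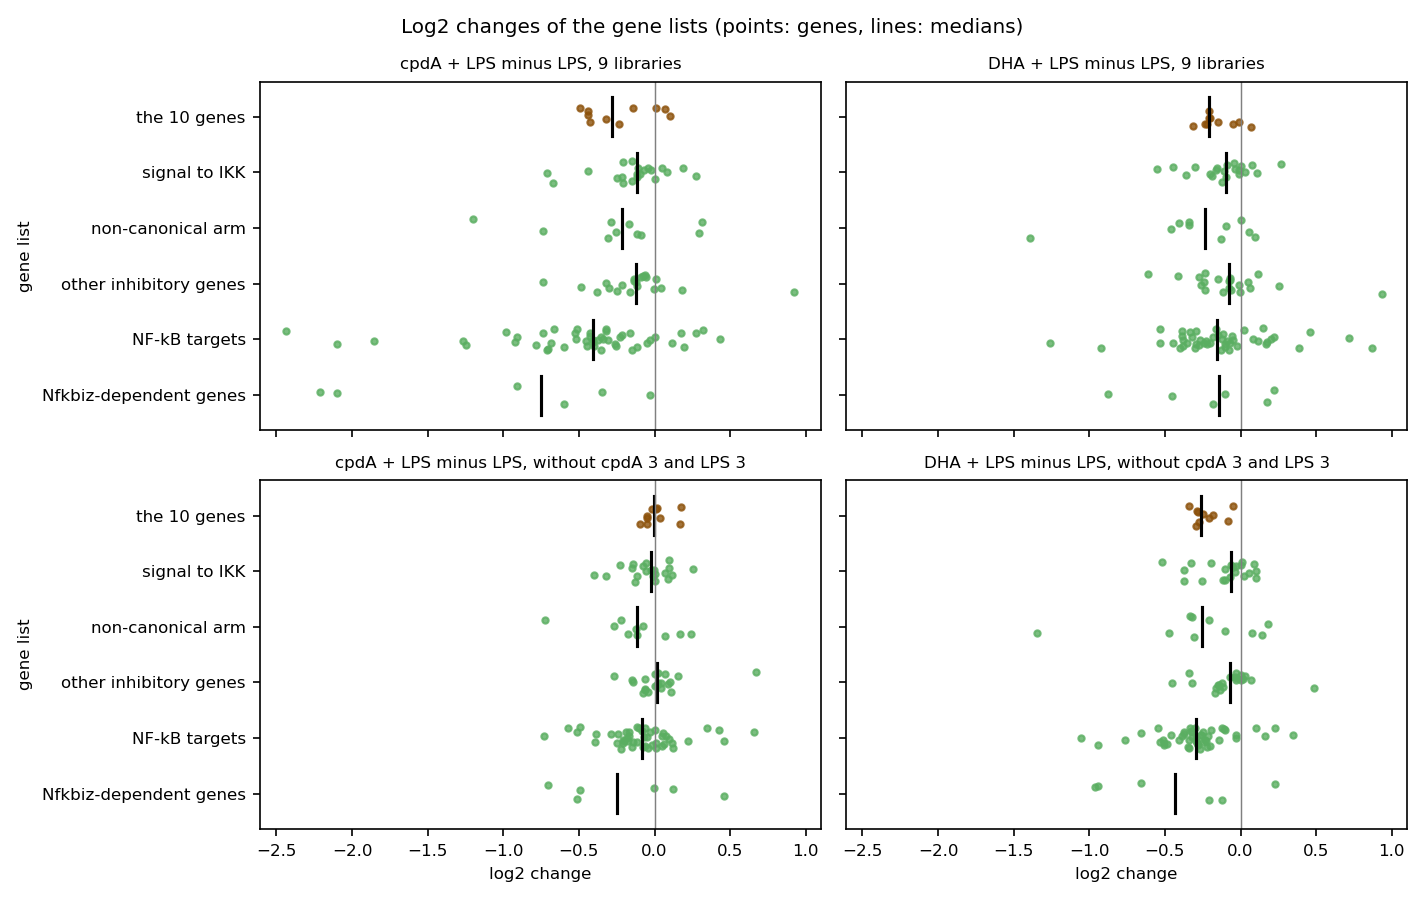
Log2 differences of single genes (points) and their medians (lines) for the 10 genes and the 5 lists, for cpdA + LPS minus LPS (left) and DHA + LPS minus LPS (right), with 9 libraries (top) and without cpdA 3 and LPS 3 (bottom). The target list has a median of -0.40 for cpdA with 9 libraries and -0.081 without these libraries, and of -0.15 and -0.30 for DHA.

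Markers of other cells were measured beside these values. Of 11 entries for macrophages 10 were in the table, none at 0, and their summed normalized count was 386772 to 589016.5 in cpdA, 563006 to 585203 in DHA and 333302 to 585633 in LPS libraries, with LPS 3 and cpdA 3 lowest. Most of this sum was Lyz2, and the single markers did not move alike. Csf1r was highest in cpdA 3 (21816), and Mertk and Fcgr1 in LPS 3 (10615 and 10269). Cd14 was lowest in cpdA 3 (12490), and Emr1 in LPS 3 (29157). Of 9 T and NK cell entries 5 were in the table, summing to 123.1 to 277.9 in cpdA, 234.4 to 265.3 in DHA and 363.1 to 469.7 in LPS, most of it Lck, with Cd3d at 2.7 to 11.5. Neutrophil markers (4 of 10 in the table) summed to 172.9 to 610.5 in cpdA, 522.1 to 615.4 in DHA and 281.4 to 509.3 in LPS, and were lowest in cpdA 3 and LPS 3. Mesothelial, fibroblast and endothelial markers (10 of 10) summed to 28016 to 30413 in cpdA, 26727 to 29030.4 in DHA and 24790.4 to 41948 in LPS, with LPS 3 highest. Mast cell, basophil and eosinophil markers (6 of 10) summed to 172.1 to 417.2 in cpdA, 168.0 to 203.0 in DHA and 206.5 to 396.0 in LPS, B cell markers (6 of 6) to 1177 to 1277, 1206 to 1618 and 1158 to 1322, and monocyte-derived and dendritic cell markers (7 of 8, nearly all Itgax) to 28431 to 48594, 41129.5 to 49085 and 22693 to 45956. Nuclear transcripts (4 of 8 entries for RNA quality) summed to 53626 in cpdA 3, most of it Neat1 at 46514, and to 12175 to 23231 in the other 8 libraries. The part of these values in the results was not tested.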

How the data were processed

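RNA-seq of 9 libraries, 3 for each of 3 groups by title, was analysed as deposited. Each value is a signal that the authors obtained from a read count and a size factor of the library. The submitters' processing notes name CASAVA 1.8.2, Bowtie2, DESeq and the build mm9. The sources used here do not name the program that counted reads, the annotation or whether strand was used. Overlapping or antisense genes therefore may share reads. The labels' text on cell growth and extraction is about other experiments and was left aside. In each library 99.64% to 99.99% of the deposited values were whole multiples of the worth of 1 read within a tolerance of 0.05, which gave back counts of reads.

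Genes with a value of at least 10 in at least 3 libraries entered limma 3.58.1 on the log2(value + 1) scale (R 4.3.3, statmod 1.5.0) with trend and robust options, 1 mean for each group and all 9 libraries. Adjusted p-values are Benjamini-Hochberg over all 13895 genes, with a threshold of 0.05, and differences on this scale understate those of low genes. Recovered counts were also tested with edgeR 4.0.16 and DESeq2 1.42.0. Ratios used exact permutation tests in scipy 1.17.1. The scripts were tested on simulated data. The members, the gene lists and the libraries known to stand apart were chosen with earlier results of these data known. The fits without DHA 1, those without cpdA 1, and edgeR on 7 libraries were added after the values here were seen. The text names the 10 genes, list genes past the test or among the 2 largest rises and falls of a list (mean of at least 50), and the genes most like each of the 10 by Pearson's r. Cpt1a was named after its values were seen.

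What a replicate number stands for is not in the labels. Deviations from group means correlated across genes at 0.387, 0.234 and 0.437 for same-number cpdA and LPS libraries. For same numbers r was 0.14, -0.0654 and 0.0199 in DHA and LPS, and 0.407, -0.345 and 0.013 in cpdA and DHA. Only cpdA and LPS numbers passed 0.1 in every pair. Unlike numbers reached 0.292 (cpdA 1 with LPS 2) and 0.264 (cpdA 2 with LPS 1). The other unlike cpdA and LPS pairs, each with cpdA 3 or LPS 3, ran from -0.432 to -0.306. For cpdA and DHA the highest r was of unlike numbers, 0.452 for cpdA 3 with DHA 2. These r therefore do not show that a shared number marks a pair. The fits and ratio tests in the text are unpaired, and a replicate block was an alternative in all 3 comparisons. Promoter sequences are RefSeq's (GRCm38.p6), and lengths are merged GENCODE exons of that build, which is not the authors'. Scalings by TMM, median of ratios and quantiles put the median difference of all genes between -0.0169 and 0.0157. Intervals and counts of reads cover counting error only where they concern 1 library.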

Additional observations from a re-analysis of the deposited data

How the results depend on the processing

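The count of the 10 genes past the test stayed at 0 under each of the pseudocounts, filters, scalings and thresholds tried, with edgeR, DESeq2 and a replicate block, and with each library left out in turn, in all 3 comparisons. It was 3 of 10 for DHA against LPS with library weights, 8 without cpdA 3, LPS 3 and DHA 1, and 8 without cpdA 1 as well. For cpdA against DHA it was 9 without cpdA 3, LPS 3 and DHA 1. For any difference among the 3 groups it was 2 with library weights, 9 without cpdA 3, LPS 3 and DHA 1, and 6 without cpdA 1 as well. With 2 libraries of a group or fewer, the spread rests on the libraries that remain and a lone library is assumed to vary like the others. DHA 1 is the shallowest library, at 13797079 reads, and holds the highest DHA values of the 10 genes.

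For DHA against LPS, where 1 gene of all was called, the count was 3 with a filter of 50, 3 with TMM scaling, 3 with edgeR, 315 with DESeq2, 9 with the compared libraries alone, 943 without cpdA 3 and LPS 3, 1157 with edgeR on those, 3210 without DHA 1 as well, 3086 without cpdA 1 in addition, and 4303 with library weights. It was 0 without the trend and robust options, with the replicate block, without DHA 1 and cpdA 1, and at a threshold of 0.01. For cpdA against LPS, also 1 gene, it was 391 with DESeq2, 222 without cpdA 3 and LPS 3, 290 with edgeR on those, 730 without DHA 1 as well, 250 without cpdA 1 in addition, and 563 with library weights. It was 0 without the trend and robust options, with the replicate block, with the compared libraries alone, without DHA 1 and cpdA 1, and at a threshold of 0.01. For cpdA against DHA, 0 genes, it was 1215 without cpdA 3, LPS 3 and DHA 1 and 286 without cpdA 1 as well. Leaving out single libraries, these counts ran from 0 to 373 for DHA, the highest without cpdA 3, from 0 to 3 for cpdA, and stayed at 0 between the pretreatments. An adjusted p was missing from DESeq2 for 1895 genes in cpdA against LPS, 279 in DHA against LPS and 9 in cpdA against DHA. Each replicate number occurs in every group, so the replicate block could not change a log2 difference. Pairing by replicate number changed no other call. The cause of these shifts was not tested.

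Of 270 pairs of gene and alternative in each comparison, the direction turned in 17 for cpdA against LPS, 19 for DHA against LPS and 50 for cpdA against DHA. Of these reversed values 6 were past the test, all for cpdA against DHA without cpdA 3, LPS 3 and DHA 1. With quantile scaling the reversed log2 differences were in DHA against LPS Nfkb1 0.013 and Nfkbie 0.095, in cpdA against DHA Nfkbia 0.017. With edgeR the reversed log2 differences were in DHA against LPS Nfkbie 0.012, in cpdA against DHA Nfkbia 0.022. With DESeq2 the reversed log2 differences were in DHA against LPS Nfkbie 0.010, in cpdA against DHA Nfkbia 0.022. With library weights the reversed log2 differences were in DHA against LPS Tnip1 -0.095, in cpdA against DHA Nfkb1 0.19, Nfkb2 0.27, Rel 0.074, Nfkbia 0.28, Nfkbiz 0.17, Tnfaip3 0.17 and Tnip1 0.26. Without cpdA 3 and LPS 3 the reversed log2 differences were in cpdA against LPS Nfkb2 0.008 and Nfkbia 0.018, in DHA against LPS Tnip1 -0.053, in cpdA against DHA Nfkb1 0.25, Nfkb2 0.30, Rel 0.20, Nfkbia 0.30, Nfkbiz 0.25, Tnfaip3 0.23 and Tnip1 0.22. By edgeR on those 7 libraries the reversed log2 differences were in cpdA against LPS Nfkb2 0.011 and Nfkbia 0.022, in DHA against LPS Tnip1 -0.013, in cpdA against DHA Nfkb1 0.21, Nfkb2 0.26, Rel 0.18, Nfkbia 0.26, Nfkbiz 0.22, Tnfaip3 0.20 and Tnip1 0.18. Without cpdA 3, LPS 3 and DHA 1 the reversed log2 differences were in cpdA against LPS Nfkb2 0.008 and Nfkbia 0.018, in DHA against LPS Tnip1 -0.22, in cpdA against DHA Nfkb1 0.37, Nfkb2 0.46, Rel 0.27, Nfkbia 0.44, Nfkbiz 0.36, Tnfaip3 0.35 and Tnip1 0.39. Without cpdA 1 in addition the reversed log2 differences were in DHA against LPS Tnip1 -0.22, in cpdA against DHA Nfkb1 0.36, Nfkb2 0.41, Rel 0.30, Nfkbia 0.37, Nfkbiz 0.42, Tnfaip3 0.34 and Tnip1 0.29. Without DHA 1 and cpdA 1 the reversed log2 differences were in cpdA against LPS Nfkbie -0.006 and Tnip1 -0.18, in DHA against LPS Tnip1 -0.10. With each library left out in turn, ranges of the log2 differences spanned 0 for these genes. In cpdA against LPS these were Nfkb1 -0.54 to 0.097, Nfkb2 -0.82 to 0.098, Relb -0.066 to 0.17, Nfkbia -0.43 to 0.084, Nfkbie -0.006 to 0.25, Nfkbiz -0.71 to 0.022 and Tnip1 -0.18 to 0.29. In DHA against LPS these were Relb -0.19 to 0.062, Nfkbie -0.18 to 0.14 and Tnip1 -0.10 to 0.21. In cpdA against DHA these were Nfkb1 -0.40 to 0.25, Nfkb2 -0.62 to 0.30, Rel -0.40 to 0.20, Rela -0.048 to 0.20, Nfkbia -0.21 to 0.30, Nfkbie -0.038 to 0.28, Nfkbiz -0.48 to 0.25, Tnfaip3 -0.30 to 0.23 and Tnip1 -0.25 to 0.22. Of 120 pairs of ratio and alternative, 8 turned in direction. Their ranges were Nfkb2 over Nfkb1 in DHA against LPS -0.089 to 0.002, Nfkb2 over Nfkb1 in cpdA against LPS -0.28 to 0.000, Nfkb2 over Nfkb1 in cpdA against DHA -0.22 to 0.053, Nfkbia over Nfkb1 in DHA against LPS -0.11 to 0.017, Nfkbia over Nfkb1 in cpdA against LPS -0.014 to 0.18, Nfkbiz over Nfkbia in DHA against LPS -0.066 to 0.026, Tnfaip3 over Tnip1 in cpdA against DHA -0.14 to 0.011.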
